A study of Rattus norvegicus with 60 samples.

Results

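The response of the rat brain to lamotrigine was measured as an average over the hippocampus, the cortex and the striatum, so that genes which moved alike in each region stood out. The comparison used 30 of the 60 arrays of the series, 15 from 5 rats given lamotrigine and 15 from 5 rats given its vehicle, chosen by their titles. Rats of the strain labelled SD received daily subcutaneous injections for 21 days, of lamotrigine at 30 mg/kg or of the vehicle. No other agent is named for these groups. The time label of all samples says constant delivery, and the tissue label says mouse brain region. The once-daily injection of the design text was used here, as was the rat given by organism, strain and array. Each rat gave 1 array per region, and its number in the sample description tied its 3 arrays together. The other 30 arrays came from rats fed LiCl at 0.2% in chow or plain chow, and they entered only the comparison of lamotrigine with LiCl. The age and sex of the rats are not given in the sources used here.

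Lamotrigine is an anticonvulsant and mood stabilizer that blocks voltage-gated sodium channels and lowers glutamate release. Several genes in the results below belong to well-known systems. P2ry12 and P2rx4 encode receptors for extracellular nucleotides, and P2ry12 is a marker of resting microglia, the resident immune cells of the brain. Hyou1 encodes a chaperone of the endoplasmic reticulum, where the unfolded protein response raises such chaperones together when misfolded protein accumulates. Hbb and the alpha globins are made in red blood cell precursors, so in whole brain tissue they are mostly carried by blood.

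The labelled regions were checked against neuronal markers, and the marker list of each region was highest in that region in 10 of 10 rats. The numbers that tie arrays to rats were checked on 100 probe sets picked from hippocampus and cortex, and the striatum array of 10 of 10 rats matched its own number best, with a correlation of at least 0.92 against at most 0.38 for any other rat. Array medians lay between 96.0 and 101 intensity units. Choroid plexus genes stood more than 1 log2 unit above the region median on 6 of the 30 arrays, 4 from vehicle rats and 2 from lamotrigine rats. The width of the intensity distribution, from the 25th to the 75th percentile, averaged 3.54 log2 units in vehicle and 3.46 in lamotrigine cortex, 3.61 and 3.54 in hippocampus, and 3.41 and 3.42 in striatum.

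Across the 3 regions, 24 of 31042 probe sets passed an adjusted p of 0.05 in limma, 0.0773% of those tested. Of these, 11 were higher with lamotrigine (0.0354%) and 13 lower (0.0419%). The 24 included 13 probe sets with a single gene symbol, covering 12 genes, 4 globin probe sets with several symbols and 7 with no symbol here. At an unadjusted p under 0.05 there were 2052 (6.61%), 1225 higher (3.95%) and 827 lower (2.66%). The changes of the 24 ran from 0.22 to 1.83 log2 units in size, and 7 reached 1.5-fold. All 24 had the same sign in the 3 regions, against 34.2% of all probe sets, and 21 of them had an unadjusted p under 0.05 in each region, against 0.19%. The 24 were chosen on the average of these same arrays, so these shares follow in part from the choice. With each rat counted once, as the mean of its 3 arrays, no probe set passed, the smallest adjusted p was 0.393, and 1974 probe sets (6.36%) had an unadjusted p under 0.05. The calls below therefore hold only in fits that take the 3 regions of a rat as partly separate measurements, here with 1 correlation of 0.14 shared by all probe sets. With those 6 choroid-rich arrays removed, 11 of the 24 were called, among them Rap2b, Hbb and the 4 other globin probe sets, Nqo2, Nrcam and 1 probe set of P2ry12. Hyou1, P2rx4 and Pik3c2a were then at an adjusted p of 0.052, Bphl, Pcdhb6 and Dhx36 between 0.0651 and 0.0745, and Gnptab at 0.215. With the width of each array in the model, 14 were called, and Nqo2, Gnptab, Pik3c2a and the other probe set of P2ry12 were not (adjusted p 0.0617 to 0.241).

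**Figure D1:**
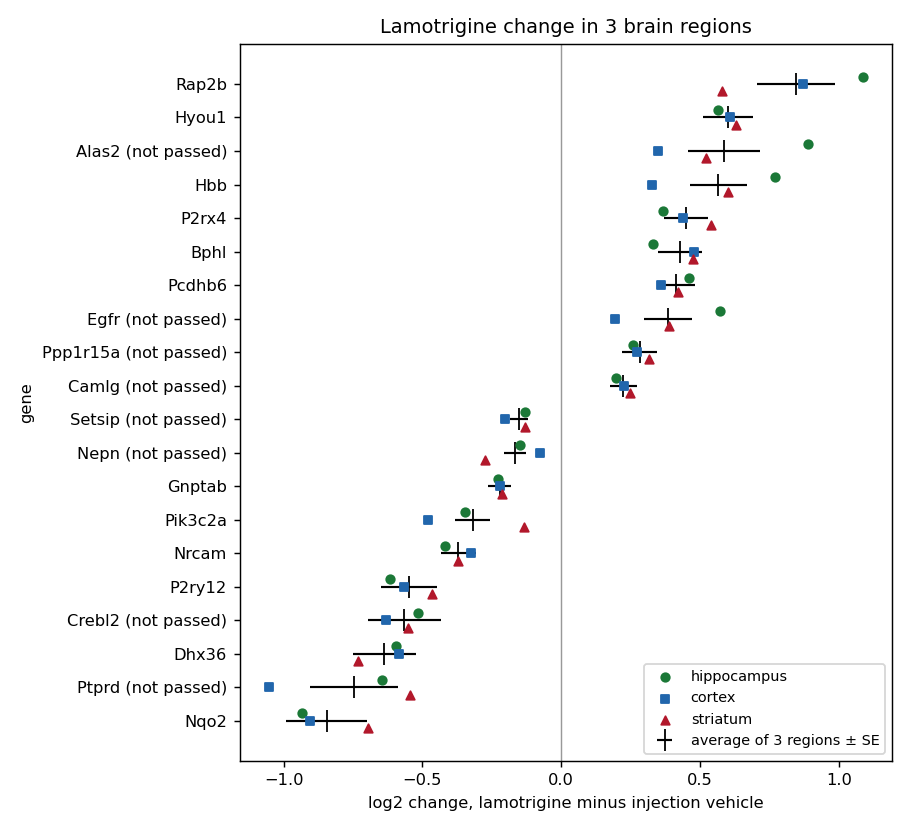
Log2 change with lamotrigine against injection vehicle for the 20 named genes, in the hippocampus, cortex and striatum (coloured marks, 5 rats per group) and on average (black tick with its standard error). Genes marked as not passed had an adjusted p over 0.05. The rule for naming genes required the same sign in the 3 regions, so each of the 20 lies on 1 side of zero by choice. The averages ran from Nqo2 at -0.84 to Rap2b at 0.85.

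P2ry12, the ADP receptor of microglial processes, was lower with lamotrigine on both of its probe sets. On the probe set 1368728_at the 5 vehicle rats had mean log2 levels over their regions of 8.16, 8.09, 8.31, 8.47 and 8.34. The 5 lamotrigine rats had 7.82, 7.48, 7.54, 7.84 and 7.95. Every lamotrigine rat was below every vehicle rat. The change was -0.55 ± 0.08 log2 units (SE, adjusted p = 0.00227 in limma), a 1.46-fold difference, and the arrays did not overlap in 2 of the 3 regions. The probe set 1380822_at gave -0.55 ± 0.10 (adjusted p = 0.013), with values of -0.62 in the hippocampus, -0.57 in the cortex and -0.47 in the striatum. Its call was lost without vehicle replicate 3 or 5 or lamotrigine replicate 1 (adjusted p 0.0512 to 0.0961), while 1368728_at kept its call without any single rat.

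No other microglial marker passed. The list of microglial markers had 15 measured genes, of which 12 were lower, 3 higher and 1 called, P2ry12 itself, against 0.0633% called over all genes with 1 probe set each. At an unadjusted p under 0.05, 3 were lower and 2 higher (33.3%), against 5.87% of all genes. The list had a median of -0.09 log2 units beside 0.01 over all 14217 genes. Aif1, a calcium-binding protein of microglia and macrophages, was at -0.19 (adjusted p = 0.789), with vehicle rats from 8.14 to 8.62 and lamotrigine rats from 8.01 to 8.54, so the treatments overlapped. Ctss, a lysosomal protease, was at -0.14 and Csf1r, the receptor for the growth factor that maintains microglia, was at -0.14, neither of which passed (adjusted p = 0.698 and 0.718). Cx3cr1, the fractalkine receptor, stood at 0.12 and Tmem119, a surface marker of resident microglia, at 0.21 (adjusted p = 0.647 and 0.728). The mean level of the list ran from 7.68 to 7.99 in vehicle rats and from 7.71 to 7.86 in lamotrigine rats, so the groups overlapped for the list where they did not for P2ry12. In tissue of mixed cells, fewer cells of a type and less RNA per cell cannot be told apart.

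P2rx4, an ATP-gated cation channel, was higher with lamotrigine. Vehicle rats had mean levels of 6.90, 6.92, 7.03, 6.95 and 6.85, and lamotrigine rats had 7.45, 7.21, 7.04, 7.52 and 7.69. The vehicle rats lay close together, the lamotrigine rats were spread out, and lamotrigine replicate 3 lay just above the highest vehicle rat. The change was 0.45 ± 0.08 (adjusted p = 0.0115). The call was lost without vehicle replicate 1 or 5 or lamotrigine replicate 1 or 5 (adjusted p 0.0514 to 0.072).

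Hyou1, the endoplasmic reticulum chaperone, was higher with lamotrigine in all regions by nearly the same amount, 0.56 in the hippocampus, 0.61 in the cortex and 0.63 in the striatum. The average was 0.60 ± 0.09 (adjusted p = 0.00227), or 1.52-fold. Lamotrigine rats had mean levels of 8.43, 8.38, 8.43, 8.35 and 8.36. Vehicle rats had 7.50, 7.70, 7.69, 8.40 and 7.66. The lamotrigine rats were almost equal, and vehicle replicate 4 stood at their level in each of its 3 regions while the other 4 vehicle rats were lower. Without that rat the change was 0.75. The second Hyou1 probe set gave 0.44 ± 0.09 and did not pass (adjusted p = 0.0743).

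The other listed genes of the unfolded protein response did not move with Hyou1. Ppp1r15a, a phosphatase subunit described further below, was not in the list and stood at 0.28 (adjusted p = 0.118 in limma). Of 24 measured chaperones and response genes, 9 were higher and 15 were lower, with a list median of -0.02 log2 units. Hyou1 was the single call, against 0.0633% called over all genes with 1 probe set each. At an unadjusted p under 0.05 in limma the share of the list was 4.17%, against 5.87% of all genes. Hspa5, the main chaperone of the compartment, was at -0.03, Hsp90b1 at -0.02, Xbp1, a transcription factor of the response, at -0.05 and Herpud1, a degradation factor, at 0.00. Genes of this response are commonly controlled through the endoplasmic reticulum stress element, CCAAT and CCACG with 9 free bases between them, or its shorter form, ATTGG and CCACG with 1 free base between them. The 250 bases before the Hyou1 start are shown because they hold 2 copies of the shorter form, at bases -188 to -178 and -88 to -78, here on the opposite strand and in capitals. The window is chr8:53602632-53602881 of GRCr8, plus strand, from RefSeq.
Hyou1: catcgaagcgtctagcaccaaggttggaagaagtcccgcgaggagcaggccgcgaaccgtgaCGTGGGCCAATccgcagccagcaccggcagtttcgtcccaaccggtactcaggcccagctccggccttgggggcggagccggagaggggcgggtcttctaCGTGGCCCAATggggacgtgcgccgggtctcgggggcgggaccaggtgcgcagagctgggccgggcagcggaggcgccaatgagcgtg

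The shorter element, searched on both strands, occurred in 14 of 33469 promoter windows of the same length (0.0418%), and the longer one in 22 (0.0657%). Among the 20 list genes with a window, 2 held the shorter element, Hyou1 and Herpud1, and 7 held the longer one, Calr, Canx, Creld2, Dnajc3, Hsp90b1, Hspa5 and Xbp1. Apart from Hyou1, these 8 genes had changes between -0.06 and 0.05 log2 units, with unadjusted p from 0.145 to 0.983. A match of letters is a description of the window and not a site shown to be bound.

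Globin RNA was higher with lamotrigine. Hbb, the beta chain, had mean levels of 12.32, 11.95, 12.33, 12.47 and 12.30 in vehicle rats and of 13.09, 12.78, 12.68, 12.94 and 12.70 in lamotrigine rats. Every lamotrigine rat was above every vehicle rat. The change was 0.57 ± 0.10 (adjusted p = 0.0122), and 4 further probe sets that carry several globin symbols were called at 0.48 to 0.61. The signals of such near-identical globin genes cannot be assigned to 1 copy on this array. Hbb changed by 0.77 in the hippocampus, 0.33 in the cortex and 0.60 in the striatum, with a standard error of 0.16 in each, and the difference between regions did not pass the test. Alas2, which makes heme in red cell precursors, was at 0.59 ± 0.13 and did not pass (adjusted p = 0.0807), Ahsp, which stabilizes alpha globin, was at 0.22 and Slc4a1, the red cell anion exchanger, at 0.13. All 4 measured blood genes were higher, with a median of 0.39 log2 units, and how much blood the tissue held was not tested. The call of Hbb was lost without vehicle replicate 2 or 3 or lamotrigine replicate 1 or 4 (adjusted p 0.0526 to 0.0807).

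**Figure D2:**
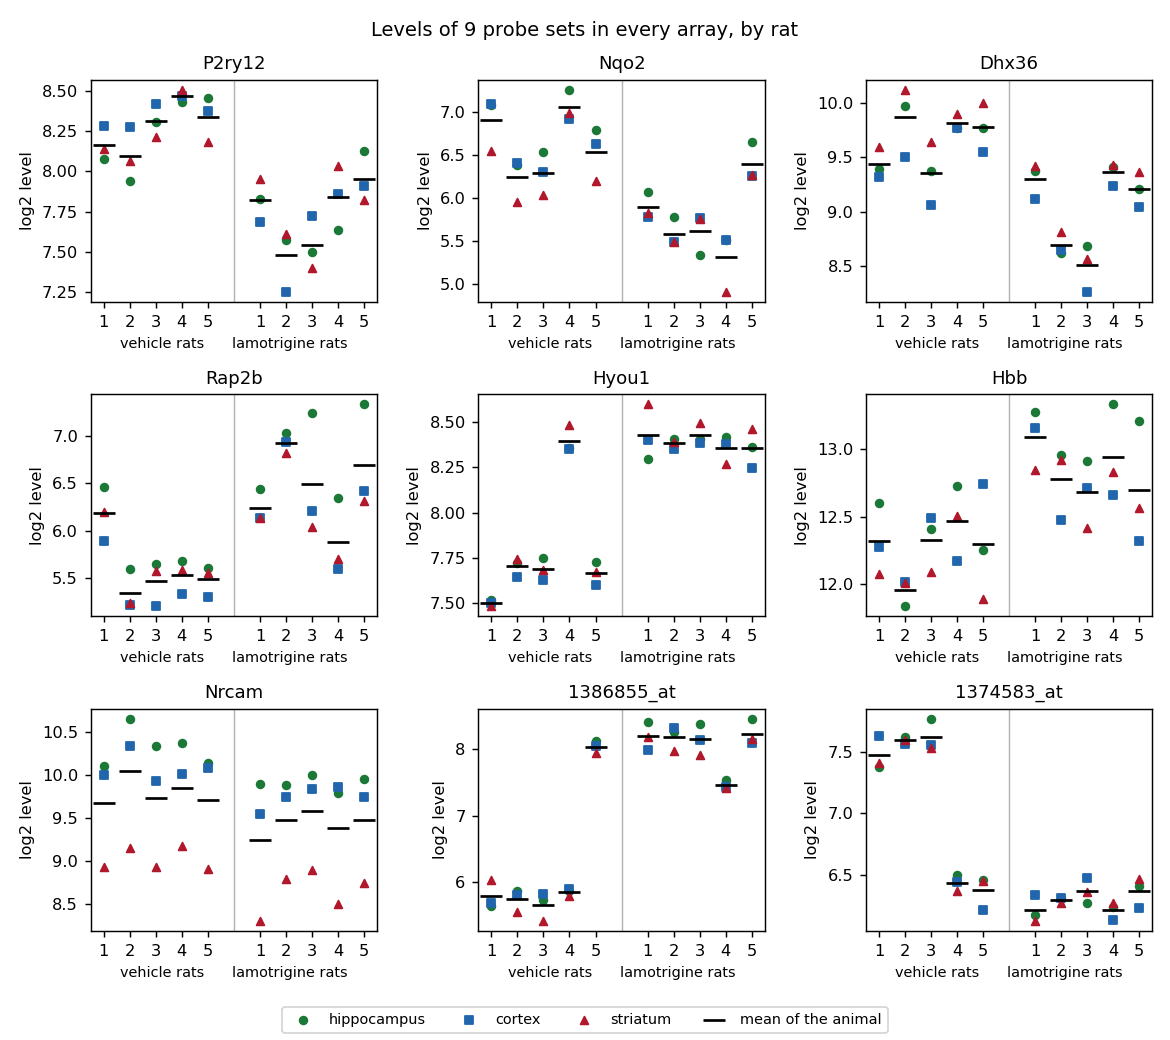
Log2 levels of 9 called probe sets (P2ry12 is 1368728_at) on every array, with the 5 vehicle rats at the left and the 5 lamotrigine rats at the right of each panel, regions as coloured marks and the mean of a rat as a black line. Vehicle replicate 4 lay with the lamotrigine rats for Hyou1, and vehicle replicate 5 did so for 1386855_at, at 8.04 against 5.66 to 5.86 in the other vehicle rats.

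Nrcam, a neuronal cell adhesion molecule that helps to assemble sodium channel clusters at nodes of Ranvier, was the single probe set of 31042 whose arrays did not overlap between treatments in any of the 3 regions (0.00322%). In the hippocampus the vehicle arrays lay between 10.10 and 10.65 and the lamotrigine arrays between 9.79 and 9.998. In the cortex the ranges were 9.92 to 10.33 and 9.54 to 9.85, and in the striatum 8.90 to 9.17 and 8.30 to 8.90. The lamotrigine arrays were below the vehicle arrays throughout, by the smallest margin in the striatum. The average change was -0.37 ± 0.06 (adjusted p = 0.00734), and it remained called without any single rat. Other Nrcam probe sets differed, since 1377001_at was at 0.16 (unadjusted p = 0.0226, adjusted p = 0.698) and 1371036_at at -0.05. Pcdhb6, a clustered protocadherin, was higher by 0.42 ± 0.07 (adjusted p = 0.00674), with mean levels of 4.40, 4.76, 4.24, 4.48 and 4.42 in vehicle rats and 4.93, 5.00, 4.76, 4.80 and 4.88 in lamotrigine rats. The groups of rats nearly met for Pcdhb6, and its levels were low on this array.

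Nqo2, a quinone reductase, was the named gene with the largest fall. Vehicle rats had mean levels of 6.90, 6.24, 6.29, 7.05 and 6.54, and lamotrigine rats had 5.89, 5.58, 5.62, 5.31 and 6.39. Lamotrigine replicate 5 lay among the vehicle rats and the other 4 lamotrigine rats lay below all of them. The change was -0.84 ± 0.15 (adjusted p = 0.00785), or 1.80-fold, and without vehicle replicate 1 it was -0.77 (adjusted p = 0.055). Bphl, a serine hydrolase, was higher by 0.43 ± 0.08 (adjusted p = 0.013). Its vehicle rats were at 7.19, 7.55, 7.64, 7.23 and 7.67 and its lamotrigine rats at 7.79, 8.10, 7.99, 7.85 and 7.69, and the lowest lamotrigine rat was only just above the highest vehicle rat. The call was lost without vehicle replicate 1 or 4 or lamotrigine replicate 2 or 3 (adjusted p 0.0504 to 0.0877).

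Rap2b, a small GTPase of the Ras family, had the largest rise among named genes. Vehicle rats were at 6.18, 5.34, 5.47, 5.53 and 5.48 and lamotrigine rats at 6.24, 6.93, 6.49, 5.88 and 6.69. Vehicle replicate 1 stood above the other 4 vehicle rats and above lamotrigine replicate 4. The change was 0.85 ± 0.14 (adjusted p = 0.00708), or 1.80-fold, and it was called without any single rat. Dhx36, a helicase that unwinds G-quadruplexes, was lower by 0.64 ± 0.11 on the probe set 1385871_at (adjusted p = 0.0118). Vehicle rats were at 9.43, 9.87, 9.36, 9.81 and 9.78, and lamotrigine rats at 9.30, 8.69, 8.51, 9.36 and 9.21. Lamotrigine replicates 2 and 3 were the lowest, and replicate 4 reached the lowest vehicle rat. The other 4 probe sets of Dhx36 gave -0.25, -0.19, -0.04 and -0.03, none called. The call was lost without vehicle replicate 2 or 5 or lamotrigine replicate 2 (adjusted p 0.0564 to 0.0802).

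Some of the called genes lay near one another. In the gene order of the RefSeq annotation of GRCr8, 5 of the 12 called genes fell in 2 short stretches. A stretch joined called genes at most 20 places apart among the coding genes of a chromosome. How many of any 12 genes would fall in such stretches was not tested. Bphl and Nqo2 lay on chromosome 17 with 2 coding genes between them. P2ry12, Rap2b and Dhx36 lay on chromosome 2 in a stretch of 17 coding genes that ran from P2ry12 to Dhx36. The members of each stretch moved in opposite directions, Bphl up and Nqo2 down, Rap2b up and P2ry12 and Dhx36 down. Of the genes between them, 2 on chromosome 17 (3 probe sets) and 5 on chromosome 2 (9 probe sets) were measured, and their changes lay between -0.14 and 0.23 log2 units with none called. The largest of these was P2ry1, another nucleotide receptor and the neighbour of Rap2b, at 0.23 (unadjusted p = 0.00153, adjusted p = 0.369). This nearness was noticed after the values were seen, and its part in the result was not tested.

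For many called probe sets the level differed between rats and was repeated in the 3 regions of a rat. The correlation among the 3 arrays of a rat, within treatment and region, had a median of 0.53 over the 24 called probe sets and 0.13 over all probe sets, and 19 of the 24 lay above the shared value of 0.14. It was 0.92 for Hyou1, 0.90 for Dhx36 and 0.79 for both Rap2b and Nqo2. It was 0.19 for Hbb, -0.01 for both Gnptab and Pik3c2a, and 0.18 and 0.52 for the P2ry12 probe sets. Levels that repeat within a rat add less than 3 separate values per rat, so the shared 0.14 gives such probe sets too small a standard error. The exact permutation test over the 10 rats used 1 value each. Its two-sided p was 0.00794, the smallest that 5 against 5 rats can give, for P2ry12, Hbb, P2rx4, Bphl, Pcdhb6, Nrcam, Pik3c2a and Gnptab. It was 0.0159 for Rap2b and Dhx36, 0.0238 for Nqo2 and 0.0317 for Hyou1. The animal means did not overlap for 16 of the 24 called probe sets, against 1.41% of all probe sets. The 24 were chosen on these same arrays, so this share and the permutation p-values describe them and are no separate support.

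**Figure D3:**
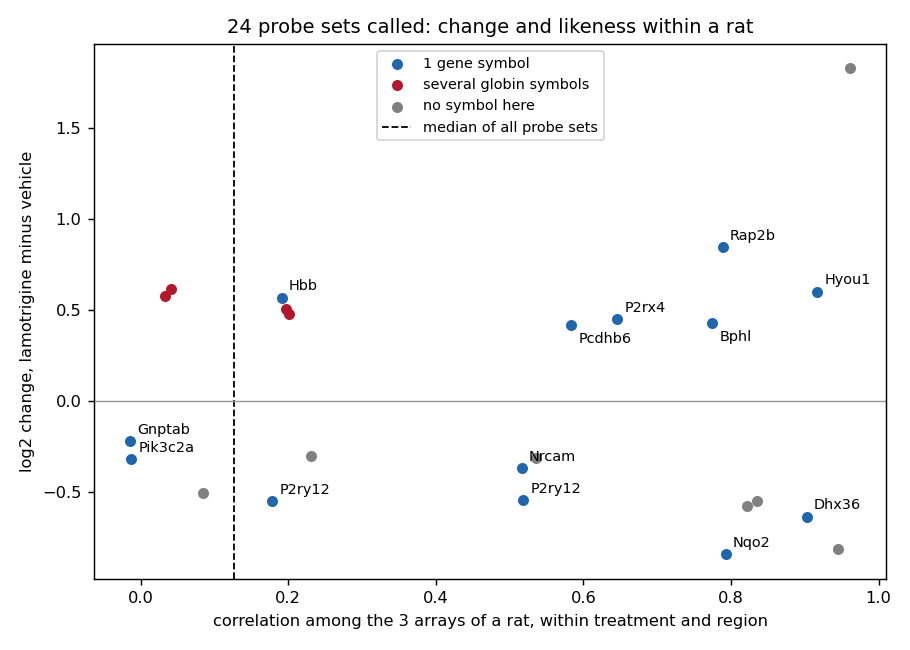
Log2 change with lamotrigine (vertical axis) against the correlation among the 3 arrays of a rat (horizontal axis) for the 24 called probe sets, coloured by their annotation, with the median of all probe sets as a dashed line. The globin probe sets and Hbb lay near the dashed line, and Hyou1, Dhx36, Nqo2 and Rap2b far to its right.

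Gnptab and Pik3c2a fell by small amounts. Gnptab, which starts the mannose 6-phosphate tag that sends enzymes to lysosomes, was at 7.66, 7.67, 7.60, 7.61 and 7.68 in vehicle rats and at 7.42, 7.37, 7.48, 7.48 and 7.37 in lamotrigine rats. The rats of each treatment lay close together and the treatments did not overlap. The change was -0.22 ± 0.04 (adjusted p = 0.0161). Pik3c2a, a phosphoinositide kinase of clathrin-coated membranes, was lower by 0.32 ± 0.06 (adjusted p = 0.0316). Vehicle rats were at 8.45, 8.41, 8.35, 8.45 and 8.51 and lamotrigine rats at 8.14, 7.93, 8.21, 8.14 and 8.15, with lamotrigine replicate 2 below the rest and no overlap between treatments. A second Pik3c2a probe set of similar level, 1378506_at, was at -0.10 (unadjusted p = 0.0371, adjusted p = 0.726), with 0.01 in the striatum. On the called probe set the change was -0.35 in the hippocampus, -0.48 in the cortex and -0.13 in the striatum, and it was the single called probe set with an unadjusted p under 0.05 for a difference between regions (0.0346, adjusted p = 1.00). Gnptab lost its call without vehicle replicate 1, 3 or 5 or lamotrigine replicate 1 or 5 (adjusted p 0.0529 to 0.153), and Pik3c2a without any of the vehicle rats or lamotrigine replicate 1, 2 or 4 (adjusted p 0.0601 to 0.166).

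Among the probe sets with no symbol, 1386855_at had the largest change of all, 1.83 ± 0.26 log2 units (adjusted p = 0.00227), or 3.55-fold. The 3 arrays of a rat correlated at 0.96 for it, against the shared 0.14, so this standard error is too small. With each rat counted once, its adjusted p in limma was 0.744. Lamotrigine rats were at 8.20, 8.19, 8.15, 7.47 and 8.23, and vehicle rats at 5.79, 5.75, 5.66, 5.86 and 8.04. The levels fell in a low and a high class with vehicle replicate 5 in the high class in each of its 3 regions. The probe set 1374583_at showed the reverse, with vehicle rats at 7.48, 7.60, 7.62, 6.43 and 6.37 and lamotrigine rats at 6.21, 6.30, 6.37, 6.21 and 6.36. Here 3 vehicle rats were high and the other 7 rats were low, and the fitted change was -0.81 ± 0.16 (adjusted p = 0.027). This probe set had a correlation within a rat of 0.94, and with each rat counted once its adjusted p in limma was 0.744. Its call was lost without vehicle replicate 1, 2 or 3 or any lamotrigine rat (adjusted p 0.0563 to 0.204).

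The rule for naming genes also took 8 that came closest without passing. The higher ones were Camlg, a membrane insertion factor, at 0.22 (adjusted p = 0.0723), Alas2, Egfr, the epidermal growth factor receptor, at 0.38 (adjusted p = 0.0958), and Ppp1r15a, a phosphatase subunit of the integrated stress response, at 0.28 (adjusted p = 0.118). The lower ones were Setsip at -0.15 (adjusted p = 0.063), Ptprd, a receptor phosphatase of synapses, at -0.75 (adjusted p = 0.063), Crebl2, a bZIP protein, at -0.57 (adjusted p = 0.146) and Nepn at -0.17 (adjusted p = 0.164). Crebl2 also had a high and a low class, divided otherwise than for 1374583_at, though vehicle replicates 1 and 3 were high for both. Vehicle replicates 1, 3 and 4 were at 8.38, 8.31 and 8.72, and the other 7 rats lay between 7.48 and 7.63. The other, brighter probe set of Crebl2, 1373618_at, went the opposite way at 0.11 ± 0.06 (unadjusted p = 0.0621, adjusted p = 0.766), with 0.05 in the hippocampus, 0.11 in the cortex and 0.16 in the striatum. The other probe sets of Ptprd were at -0.15 and -0.11, and those of Egfr at 0.17 and 0.06, none called.

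Immediate early genes, which neurons switch on within minutes of activity, were the list with the largest share of members at an unadjusted p under 0.05 among the lists of 5 or more measured genes. Of 20 measured genes, 16 were higher and 7 were higher at that threshold (35%), against 33.3% for the microglial list and 5.87% of all genes in either direction. None passed the adjustment. The list median was 0.14 log2 units, and it was 0.18 in the hippocampus, 0.09 in the cortex and 0.15 in the striatum. Arc, a regulator of synaptic receptors, was at 0.55 ± 0.18 (adjusted p = 0.521), Junb at 0.45 ± 0.13 (adjusted p = 0.366), the phosphatase gene Dusp1 at 0.45 ± 0.14 (adjusted p = 0.465) and Fos at 0.55 ± 0.25 (adjusted p = 0.716).

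For 6 of the 7 immediate early genes at an unadjusted p under 0.05, lamotrigine replicates 1, 2 and 5 were above every vehicle rat and replicates 3 and 4 were not. The exception was Ccn1, a secreted matrix protein with low levels here, for which replicate 3 at 3.71 was also above the vehicle rats (3.44 to 3.57). For Arc, lamotrigine replicates 1, 2 and 5 were at 10.16, 9.50 and 9.81, replicates 3 and 4 were at 8.82 and 8.62, and vehicle rats ran from 8.57 to 9.14. For Fos, the same 3 rats were at 10.27, 9.60 and 9.57, the other 2 were at 8.36 and 8.32, and vehicle rats ran from 8.40 to 9.03. Junb followed, with 9.48, 9.09 and 9.11 in those 3 rats, 8.36 and 8.49 in the other 2, and 8.34 to 8.63 in vehicle rats. The correlation among the arrays of a rat was 0.82 for Arc, 0.71 for Fos and 0.80 for Junb.

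**Figure D4:**
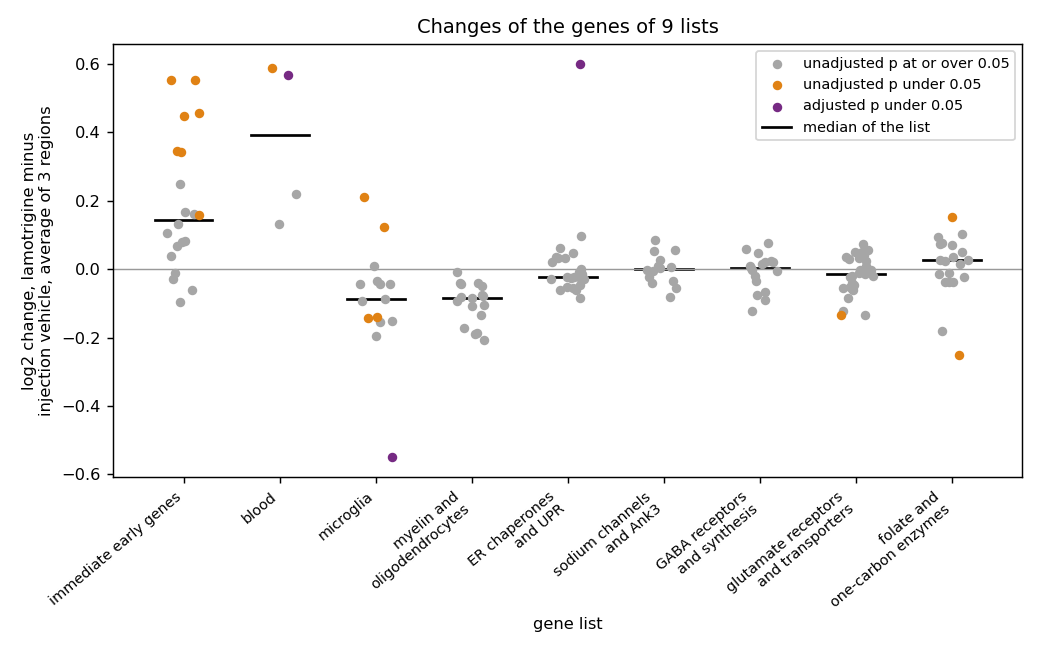
Log2 change with lamotrigine, averaged over 3 regions, for each measured gene of 9 lists (points, coloured by whether the adjusted or the unadjusted p was under 0.05), with the list median as a line. Hbb, P2ry12 and Hyou1 were the called genes in these lists, and the sodium channel and GABA lists lay around zero.

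The sodium channel, GABA, glutamate and folate lists held no called gene. Of 14 measured sodium channel genes and Ank3, none had an unadjusted p under 0.05, against 5.87% of all genes. Their changes ran from -0.08 to 0.09 and the median was 0.00 log2 units. The GABA list had 17 measured genes, none at that threshold, with a median of 0.00. Of 27 glutamate receptors and transporters, 1 was at that threshold and the median was -0.01. Folate and one-carbon enzymes, listed because lamotrigine weakly inhibits dihydrofolate reductase, had 20 measured genes with 1 higher and 1 lower at that threshold, Shmt1 at 0.15 and Mthfd1l at -0.25 (adjusted p = 0.727 and 0.698). The potassium channel gene Kcnd3 was at -0.26 (unadjusted p = 0.00215, adjusted p = 0.414).

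Lists for glia, hormones and growth gave small values. All 17 measured myelin and oligodendrocyte genes were lower, with none at an unadjusted p under 0.05. Their median was -0.08 log2 units on average, -0.20 in the hippocampus, 0.01 in the cortex and -0.07 in the striatum. Nr3c1, the glucocorticoid receptor, was at -0.21 (unadjusted p = 0.0018, adjusted p = 0.381), with vehicle rats from 9.05 to 9.28 and lamotrigine rats from 8.83 to 9.01. The treatments did not overlap for it, as was so for 1.41% of all probe sets. Ccnd1, a cyclin and target of Wnt signalling, was at -0.29 (adjusted p = 0.551). The list named neighbouring tissue had 5 of 16 measured genes higher at an unadjusted p under 0.05 and none lower. This share was 31.2%, against 5.87% of all genes in either direction, and the list median was 0.03. Slc18a3 and Chat, both of cholinergic neurons, were at 0.22 and 0.18 (adjusted p = 0.646 and 0.713). Whether the dissection differed between the treatments was not tested. The choroid plexus list had medians of -0.59 in the hippocampus, -0.09 in the cortex and 0.39 in the striatum, with no member at an unadjusted p under 0.05 on average. The 24 lists not described above had no called gene, and their medians lay between -0.05 and 0.08.

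No region showed a call of its own, and no region differed from the others by the test of the difference. Within the same fit, 0 probe sets passed in the hippocampus, the cortex or the striatum alone, with 2307 (7.43%), 1697 (5.47%) and 1269 (4.09%) at an unadjusted p under 0.05. The F test for a difference of the lamotrigine change between regions in limma called 0 probe sets, with 1408 (4.54%) at an unadjusted p under 0.05. Averaging thus gave 24 calls where single regions gave none. Leaving out a region left 0 calls without the hippocampus, 7 without the cortex and 6 without the striatum, and the globin probe sets made up 5 of the 7.

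Set against LiCl, the lamotrigine change differed for 26 probe sets (0.0838%), 7 of them among the 24. The largest of the named ones was Dhx36, at -0.64 with lamotrigine and 0.58 ± 0.17 with LiCl (adjusted p = 0.0743 for LiCl), a difference of -1.22 ± 0.24 (adjusted p = 0.0122). Rap2b was at 0.85 and -0.34, a difference of 1.18 ± 0.17 (adjusted p = 0.000152). P2ry12 was at -0.55 and 0.20 on 1368728_at, a difference of -0.74 ± 0.12 (adjusted p = 0.000674). Pcdhb6 was at 0.42 and -0.35 ± 0.09, the single one of the 24 that LiCl changed by itself (adjusted p = 0.0427), and it moved the opposite way. Hbb was at 0.57 and 0.23, and Hyou1 at 0.60 and 0.15, and neither difference passed (adjusted p = 0.51 and 0.135). LiCl and lamotrigine differed in route as well as in agent, since LiCl came in chow and lamotrigine by injection, and each was set against its own vehicle.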

How the data were processed

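RNA from 3 regions of rats was hybridized to Affymetrix rat arrays. Per the submitters' processing notes, RMA in R 2.7.2 made the deposited intensity values, which are on a linear scale and were not processed further by the authors as far as the sources used here tell. The paper supplied for reading does not describe these treatments and gave only style. Values were set to log2 with no pseudocount, and 57 control probe sets were left out of 31099, leaving 31042. One gene symbol was found for 20826 probe sets, several for 436 and none for 9780. Depth does not apply to arrays, and precision is limited by the 5 rats per group.

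Group means per region and treatment were fitted with limma 3.58.1 in R 4.3.3, with the rat as a random block (duplicateCorrelation) and an intensity trend in eBayes, and the contrast averaged the 3 regions. P-values were adjusted by Benjamini-Hochberg over all probe sets. The rats are taken as separate animals from their numbers. The LiCl comparison used all 60 arrays. In the LiCl and plain chow groups the rat numbers of the hippocampus arrays matched those of cortex and striatum only in part. Not every rat of those groups therefore gave all 3 regions. The scripts were tested on simulated data. Genes named were those called, with the same sign in 3 regions and 1 symbol, filled to 10 per direction by the smallest p. For a list, 1 probe set per gene was taken, the one with the highest mean. The gene lists and the comparison itself were chosen with earlier results of these data known. Alternatives covered the treatment of the rat, normalization, filters, covariates and leaving out rats, regions or arrays.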

Additional observations from a re-analysis of the deposited data

Results flagged for a closer look

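Among 70 groups of 5 rats (35 measured items in each treatment), 9 held a rat whose mean level stood far from the other 4, by a gap of more than 0.71 of the group's range. About 1 in 20 groups is picked out in this way by chance alone. For 1386855_at, vehicle replicate 5 was at 8.04 with the others at 5.66 to 5.86, and lamotrigine replicate 4 was at 7.47 with the others at 8.15 to 8.23. For 1386621_at, vehicle replicate 5 was at 6.80 with the others at 7.39 to 7.62. For 1393455_at, lamotrigine replicate 3 was at 7.81 with the others at 7.17 to 7.33. Vehicle replicate 4 was at 8.40 for Hyou1 (others 7.50 to 7.70) and at 7.03 for Egfr (others 6.39 to 6.55). Vehicle replicate 1 was at 6.18 for Rap2b (others 5.34 to 5.53) and at 10.98 for Setsip (others 11.06 to 11.09). For Pik3c2a, lamotrigine replicate 2 was at 7.93 with the others at 8.14 to 8.21.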

How the results depend on the processing

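The 24 called probe sets kept their direction in all 623 values computed under 26 alternatives, and the call was kept in 429 of them and lost in 194. The number of calls in the average was 24. It was 0 with the mean of each rat, 0 without the hippocampus, 7 without the cortex and 6 without the striatum. It was 38 with no animal block, 50 with the replicate block, 37 with all 60 arrays in 1 fit, 40 with the 3' to 5' ratio as a covariate, 14 with the interquartile width of the arrays in the model (10 higher and 4 lower) and 11 with the 6 arrays richest in choroid plexus genes removed (7 higher and 4 lower). All calls of these last 2 fits were among the 24. Leaving out 1 rat gave 15 to 34 calls, of which 14 to 21 were among the 24, and the fewest came without lamotrigine replicate 1. Of the 24, 10 stayed called without any single rat. Deviations of same-numbered rats of the 2 treatments correlated between -0.54 and 0.24 over 15 pairs, with 3 over 0.1. Correlations between rats of different numbers were not computed, so whether a shared number means more than the number was not tested. The replicate block moved the count of calls from 24 to 50, with 23 of the 24 among them.

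The comparison with LiCl gave 26 calls, 141 with no animal block and 13 to 93 without 1 rat of the injection groups, with 93 without lamotrigine replicate 3, 49 without lamotrigine replicate 4, 46 without vehicle replicate 4 and 13 without lamotrigine replicate 2. With the replicate block it gave 38. The difference between regions gave 0 calls throughout, with 691 to 1911 probe sets at an unadjusted p under 0.05 in limma. Fits without 1 rat in these last comparisons reused the correlation of the full fit. The cause of these changes was not tested. Signal over background was not in the files, so the limit that dim probe sets set is known only from the fit without probe sets under a mean level of 6, which gave 20 calls, all among the 24.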
